A study of Mus musculus with 24 samples.

Results

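Skeletal muscle mass is set by the balance of protein synthesis and breakdown, and a small group of genes is widely used to read that balance. *Fbxo32* (atrogin-1) and *Trim63* (MuRF1) encode the muscle ubiquitin ligases that mark proteins for degradation during wasting. *Foxo1* and *Foxo3* encode forkhead transcription factors that switch on both ligases when insulin signalling is low. *Mstn* encodes myostatin, a secreted brake on muscle growth, and *Fst* encodes follistatin, which binds and blocks it. *Myod1*, *Myog* and *Myf6* are myogenic regulatory factors that commit precursors to the muscle lineage and drive their differentiation, and *Pax7* marks the satellite cells, the resident stem cells of muscle. These 10 genes were chosen by name, all 10 had a probe on the array, and they are 10 of the 21368 genes measured with a symbol.

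The levels come from 24 one-colour Agilent arrays of liver, brain, heart and skeletal muscle from 6 female mice. In 3 mice, called A, B and C here, both copies of *Rap1* (gene symbol *Terf2ip*) carried the I312R knockin mutation (KI), made by CRISPR/Cas9 editing, which prevents the RAP1 protein from binding TRF2 at telomeres. The other 3 mice, D, E and F, were wild type (WT), and the knockin line had been back-crossed to C57BL6 (C57BL/6N in the methods of the study). Mice C and F were 14 months old and the others 15 months old, every mouse gave all 4 tissues, and the labels do not say which muscle was taken. A level is the log2 signal of a gene's probe minus the 75th percentile of its array, so 0 is the 75th percentile and levels of different probes cannot be set against each other. A probe is called well above background where the scanner software marked it so.

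The promoters of *Trim63*, high in both striated muscles, and of *Mstn* and *Myog*, high in skeletal muscle, are shown, because their letters can be read beside the levels that follow. RefSeq sequences of 300 bases (250 before and 50 after the start, GRCm38.p6, plus strand for all 3) were at hand for 6 of the 10 members. Capitals mark the E-box CANNTG, the site type bound by the myogenic factors, the forkhead site GTAAACA on either strand, and TATAAA on either strand. The windows are chr4:134314870-134315169 for *Trim63*, chr1:53061390-53061689 for *Mstn* and chr1:134289754-134290053 for *Myog*.
Trim63: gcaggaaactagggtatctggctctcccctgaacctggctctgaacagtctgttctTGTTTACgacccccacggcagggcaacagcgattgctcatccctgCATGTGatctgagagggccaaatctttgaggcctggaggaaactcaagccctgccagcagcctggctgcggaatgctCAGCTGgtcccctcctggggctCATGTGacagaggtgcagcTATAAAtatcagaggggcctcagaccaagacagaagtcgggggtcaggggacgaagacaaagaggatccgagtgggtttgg
Mstn: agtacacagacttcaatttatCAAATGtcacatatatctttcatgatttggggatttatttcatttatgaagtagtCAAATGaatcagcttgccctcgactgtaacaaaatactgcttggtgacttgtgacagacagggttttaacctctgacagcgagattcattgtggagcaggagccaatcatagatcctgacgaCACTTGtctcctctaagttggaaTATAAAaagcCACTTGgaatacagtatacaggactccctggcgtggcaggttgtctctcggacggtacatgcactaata
Myog: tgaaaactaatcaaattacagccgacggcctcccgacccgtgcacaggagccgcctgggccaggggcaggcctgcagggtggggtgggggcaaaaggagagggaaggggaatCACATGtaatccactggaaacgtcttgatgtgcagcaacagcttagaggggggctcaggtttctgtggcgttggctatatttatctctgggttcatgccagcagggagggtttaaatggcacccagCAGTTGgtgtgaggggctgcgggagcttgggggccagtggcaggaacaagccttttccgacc

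The *Trim63* window held 3 E-boxes, 1 forkhead match (read TGTTTAC on the plus strand) and 1 TATAAA. In the *Mstn* window there were 4 E-boxes and 1 TATAAA, and in the *Myog* window 2 E-boxes. Of the windows at hand but not shown, that of *Pax7*, also higher in muscle than in the other tissues, held 0 of each motif. That of *Foxo3* held 0 of each as well, and that of *Foxo1* held 1 E-box alone. E-boxes are common letters: 72.3% of 32851 mouse promoter windows of the same length held at least 1, 39.6% at least 2, 17.6% at least 3 and 6.49% at least 4. GTAAACA occurred in 3.65% and TATAAA in 13.6% of all windows. No searched motif overlapped another in these windows, and a match is a description of letters, not a bound site.

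The labelled tissues carried their own markers, with all 10 skeletal muscle markers well above background on all 6 muscle arrays and all 8 heart, liver and brain markers on the arrays of those tissues. Such counts alone set brain apart poorly, as 6 or 7 of the 8 brain markers were well above background on each heart and liver. The summed brain markers ran from 8.2 to 8.53 in the brains and from 4.66 to 6.87 in the other tissues. *Terf2ip* was well above background on all 24 arrays, and its level does not test the labels, because a point mutation leaves the transcript in place. Some libraries stood apart in ways that touch the members. Slow fibre markers differed widely between the muscle arrays, and the muscle of KI mouse B had all 7 mammary epithelium markers well above background against 2 of 7 on the other muscles. The liver of KI mouse C carried all 10 skeletal muscle markers, which summed to 5.44 there and to no more than -0.38 in any of the remaining livers. The brain of KI mouse C carried all 8 liver markers, with a sum of 8.30 where the other brains had -0.50 to 1.64. The heart of KI mouse B had the highest adipocyte sum of the hearts (5.34, others 0.68 to 3.34) and the highest liver sum (4.19, others 1.21 to 2.55). The 75th percentile signal ranged from 312.4 to 2510.4 over the arrays, and 49.4% to 68.4% of probes were well above background.

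Most of the 10 regulators were higher in skeletal muscle than in every other tissue, and the exceptions were the FOXO genes and, against heart, *Trim63*. In limma over all 24 arrays, 7 of 10 members passed the adjusted threshold of 0.05 as higher in muscle than heart, 9 of 10 against liver and 10 of 10 against brain. The counts against liver and brain include *Foxo3*, whose probe was well above background on 0 of 6 muscles, so its calls rest on values near background. Over all 17177 genes tested, 35.4% were called higher in muscle than heart, 43.8% than liver and 46.8% than brain, so a call of this kind is common. With an added limit of over 4-fold, 7, 8 and 7 members were called, against 4.86%, 14.5% and 14.2% of all genes. One member, *Foxo1* against liver, was called lower in muscle, and the share of all genes called lower was 29.4% against heart, 35.4% against liver and 35.5% against brain. The median member lay 3.05 above heart, 6.6 above liver and 6 above brain, while the median of all genes lay 0.10, 0.22 and 0.27 above. In liver, 4 members were well above background on 0 of 6 arrays, and with these at their lower bounds the member median was 4.82. With bounds for 2 members each, the medians against heart and brain stayed at 3.05 and 6.

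That median of all genes depends on the scaling: with quantile normalization it was -0.08 against heart, 0.06 against liver and -0.05 against brain. Against heart the share of calls that were higher in muscle was 54.7%, and it was 43.8% with quantile normalization and 66.0% with normexp background correction. In bulk tissue, fewer cells of a type and less RNA per cell cannot be told apart. Tissue and slide also went together, since all muscle arrays lay on 1 slide and all liver arrays on another, but 2 heart arrays shared the slide of the muscle arrays.

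**Figure D1:**
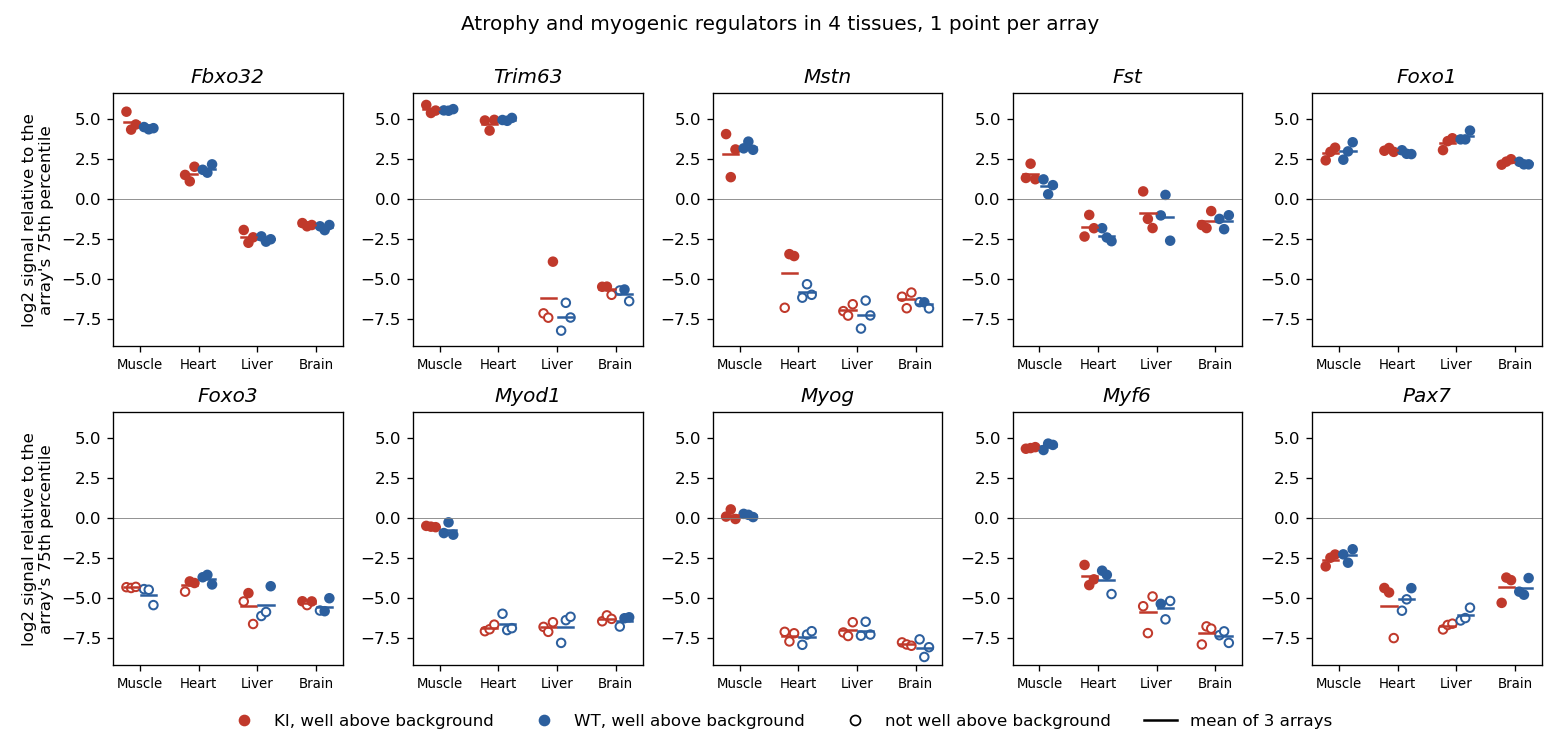
Log2 level of each member relative to the array's 75th percentile (vertical axis) on every array, by tissue, with KI in red and WT in blue, filled where the probe was well above background, and a bar at the mean of 3 arrays. Myog, Myod1 and Myf6 are high in muscle alone, Trim63 is high in muscle and heart, and Foxo1 sits between 2.14 and 4.27 in all tissues.

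The 2 ubiquitin ligases had different tissue patterns. *Fbxo32*, whose product targets proteins such as eIF3f, ranged from 4.33 to 5.45 in muscle (median 4.45), from 1.10 to 2.16 in heart, from -1.95 to -1.51 in brain and from -2.74 to -1.94 in liver. Muscle and heart did not overlap in range with any other tissue, and the brain and liver ranges overlapped. *Fbxo32* was 7.52-fold higher in muscle than heart (log2 difference 2.91, SE 0.18, limma adjusted p = 1.34e-10).

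*Trim63*, whose product targets myosin and other thick filament proteins, ranged from 5.37 to 5.87 in muscle and from 4.27 to 5.06 in heart. The 2 ranges did not overlap, yet the difference of 0.74 (SE 0.43) did not pass (limma adjusted p = 0.142). The error in that fit is pooled over all tissues. It takes in the livers, where *Trim63* read -3.92 in KI mouse C, the liver with the skeletal muscle markers, and -8.23 to -6.49 in the others. Without mouse C the difference was 0.81 with an adjusted p of 0.0149 in limma. On the slide that held both tissues it was 0.57 (limma adjusted p = 0.0525). A second probe of *Trim63* gave 0.66 (limma adjusted p = 0.218). *Trim63* was well above background on 3 of 6 brains and 1 of 6 livers.

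Myostatin and its antagonist were both highest in muscle but differed in how far they reached beyond it. *Mstn* ranged from 1.36 to 4.05 in muscle (median 3.12) and was well above background on 2 of 6 hearts, 1 of 6 brains and 0 of 6 livers. Its muscle level was at least 277-fold above liver (limma adjusted p = 7.68e-13). That bound, like the others given here as "at least", sets the mean of the bright tissue against a dim tissue in which each array's value was raised to the lowest signal well above background on that array. An adjusted p printed beside such a bound belongs to the measured difference, and the bounds themselves were not tested.

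The 2 hearts in which *Mstn* was well above background were those of KI mice B and C, at -3.45 and -3.57. The hearts of KI mouse A and WT mice D, E and F read -6.80, -6.17, -5.33 and -5.99, all below that mark. Myh4, the fast fibre myosin used as a skeletal muscle marker, was not well above background in any heart (-7.98 to -7.08, with B at -7.08 and C at -7.78). The heart of B differed in part: Myh2 was well above background there (-5.47) and in no other heart. In that heart 8 of the 10 markers were so, against 6 or 7 in the others. The summed skeletal muscle markers were lowest in the heart of B (4.89, others 5.6 to 5.87). In heart that sum rests mainly on Ckm (mean 5.09 in KI and 5.43 in WT hearts), so a trace of skeletal muscle would change it little. The slow troponin Tnni1 read -2.56 in the heart of B and -5.07 to -4.69 in the others, with C at -5.07. The part of these markers in the *Mstn* level was not tested. *Mstn* was well above background in 2 of 3 KI hearts and 0 of 3 WT hearts, and it was not tested for genotype there, because a test needed all 3 arrays of a genotype.

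*Fst* was well above background on all 24 arrays. It ranged from 0.29 to 2.20 in muscle, from -2.61 to 0.47 in liver, from -1.89 to -0.76 in brain and from -2.64 to -1 in heart. The muscle range overlapped that of liver but not those of brain and heart, and liver, brain and heart overlapped each other. *Fst* was 9.16-fold higher in muscle than heart (limma adjusted p = 4.18e-06), 4.55-fold higher than in liver (0.000161) and 5.98-fold higher than in brain (2.43e-05, both limma adjusted p). With slide as a fixed effect the liver difference was 2.46 with an adjusted p of 0.0674 in limma.

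The FOXO genes were not highest in muscle. *Foxo1* ranged from 3.05 to 4.27 in liver, 2.80 to 3.18 in heart, 2.41 to 3.54 in muscle and 2.14 to 2.48 in brain, and each range overlapped its neighbour. In muscle it was 0.78 lower than in liver on the log2 scale (SE 0.18, limma adjusted p = 0.000597) and 0.65 higher than in brain (limma adjusted p = 0.0024). Muscle and heart differed by -0.05 (limma adjusted p = 0.825), a difference that was 0.10 in WT arrays alone and 0.12 with a second probe. With slide as a fixed effect neither the liver difference (-0.68, limma adjusted p = 0.207) nor the brain difference (0.78, 0.0594) passed.

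*Foxo3* was well above background on 0 of 6 muscles, 5 of 6 hearts, 4 of 6 brains and 2 of 6 livers, so no fold is given for it. Its probe read between -5.45 and -4.31 in muscle. The calls against liver (0.90, limma adjusted p = 0.0162) and brain (0.85, 0.0217) rest on values near background and were lost with quantile normalization, where the adjusted p in limma was 0.104 and 0.326. They were also lost without mouse D (0.13 against liver and 0.0960 against brain, both limma adjusted p) and without mouse E (0.106 and 0.109). The liver call was lost without mouse C as well (0.104), and the brain call without mouse A (0.0571) or B (0.052, all limma adjusted p).

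The myogenic regulatory factors were higher in muscle than in each other tissue, with no overlap of the ranges. *Myog*, which drives terminal differentiation, ranged from -0.07 to 0.53 in muscle and was well above background on none of the 18 arrays of the other tissues. Its muscle level was at least 47.7-fold above heart, 37.5-fold above liver and 88.6-fold above brain (limma adjusted p = 1.88e-15, 3.5e-16 and 8.23e-17). On each muscle array 10 spots of the *Myog* probe agreed to an SD of 0.05 to 0.08.

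*Myod1*, the determination factor that can turn fibroblasts into muscle, ranged from -1.05 to -0.28 in muscle and was well above background on 2 of 6 brains and on no heart or liver. It was at least 27.0-fold above heart (limma adjusted p = 2.06e-13) and at least 21.2-fold above liver (2.34e-14). *Myf6* (MRF4), the factor most abundant in mature fibres, was the steadiest member in muscle, from 4.24 to 4.64 over 6 arrays. It was at least 1690-fold above brain (limma adjusted p = 5.95e-16), and it was well above background on 5 of 6 hearts at -4.20 to -2.94 and on 1 of 6 livers.

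*Pax7* ranged from -3.03 to -1.96 in muscle, where satellite cells are a minority of nuclei, and from -5.31 to -3.73 in brain, where it was well above background on all 6 arrays. It was well above background on 3 of 6 hearts and on no liver. *Pax7* was 3.67-fold higher in muscle than brain (limma adjusted p = 0.00062) and at least 6-fold above liver (limma adjusted p = 9.71e-08). The brain level was at least 1.63-fold above the liver level, which was not tested.

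Between KI and WT muscle, no member passed the test. In limma on the 6 muscle arrays, 0% of 13498 genes were called and 117 had an unadjusted p under 0.05. Of the 10 members, 9 were tested and *Foxo3* was left out because no genotype was well above background on all 3 arrays. The members' median difference was 0.01 and that of all genes 0.02, with 5 of 9 members above 0. The groups did not overlap for 1 of 9 members, and they did not overlap for 3.62% of all genes tested. An exact permutation test of 3 against 3 arrays cannot give a two-sided p below 0.10.

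*Fst* was the member with separate groups. Its levels were 1.31, 2.20 and 1.23 in KI muscles A, B and C, against 1.22, 0.29 and 0.86 in WT muscles D, E and F. KI mouse C and WT mouse D were nearly level, and KI mouse B and WT mouse E lay at the ends. The KI mean of 1.58 ± 0.54 (SD, n = 3) lay 0.79 above the WT mean of 0.79 ± 0.47 (SE 0.35, 95% interval -0.03 to 1.61, limma adjusted p = 1). Without KI mouse B, whose muscle held the mammary markers, the difference was 0.48, and over all arrays left out in turn it ran from 0.48 to 1.01.

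*Mstn* in muscle read 4.05, 1.36 and 3.09 in KI mice A, B and C and 3.16, 3.58 and 3.07 in WT mice D, E and F. KI mice held both the highest and the lowest value, and KI mouse B lay far under the other 5. The KI minus WT difference was -0.44 (SE 0.63, 95% interval -1.94 to 1.06, limma adjusted p = 1), and without KI mouse B it was 0.30.

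*Fbxo32* read 5.45, 4.33 and 4.65 in KI muscles A, B and C and 4.49, 4.35 and 4.42 in WT muscles D, E and F. The muscle of KI mouse A stood above the other 5, which lay between 4.33 and 4.65. The 10 spots of the probe agreed to an SD of 0.04 to 0.06 on each muscle array. The difference of 0.39 (SE 0.29, limma adjusted p = 1) was 0.07 without KI mouse A. *Trim63* was highest in the same muscle, at 5.87 against 5.37 and 5.52 in KI mice B and C and 5.53, 5.51 and 5.61 in WT mice. Its difference was 0.04 (SE 0.18, 95% interval -0.39 to 0.46, limma adjusted p = 1), and a second probe gave -0.10.

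The other members in muscle had overlapping groups. *Foxo1* read 2.41, 2.94 and 3.20 in KI mice and 2.45, 2.97 and 3.54 in WT mice, in the order A to F, and differed by -0.13 (SE 0.33). *Myod1* read -0.50, -0.55 and -0.58 against -0.95, -0.28 and -1.05 and differed by 0.22 (SE 0.23). The KI muscles were close together for *Myod1* and the WT muscles were not. *Myog* read 0.08, 0.53 and -0.07 against 0.25, 0.19 and 0.05 and differed by 0.01 (SE 0.20), with a 95% interval of -0.46 to 0.49. *Myf6* differed by -0.12 (95% interval -0.52 to 0.28) and *Pax7* by -0.26 (-0.94 to 0.43). All 5 had a limma adjusted p of 1. A p that misses the threshold does not show that the genotypes were alike.

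**Figure D2:**
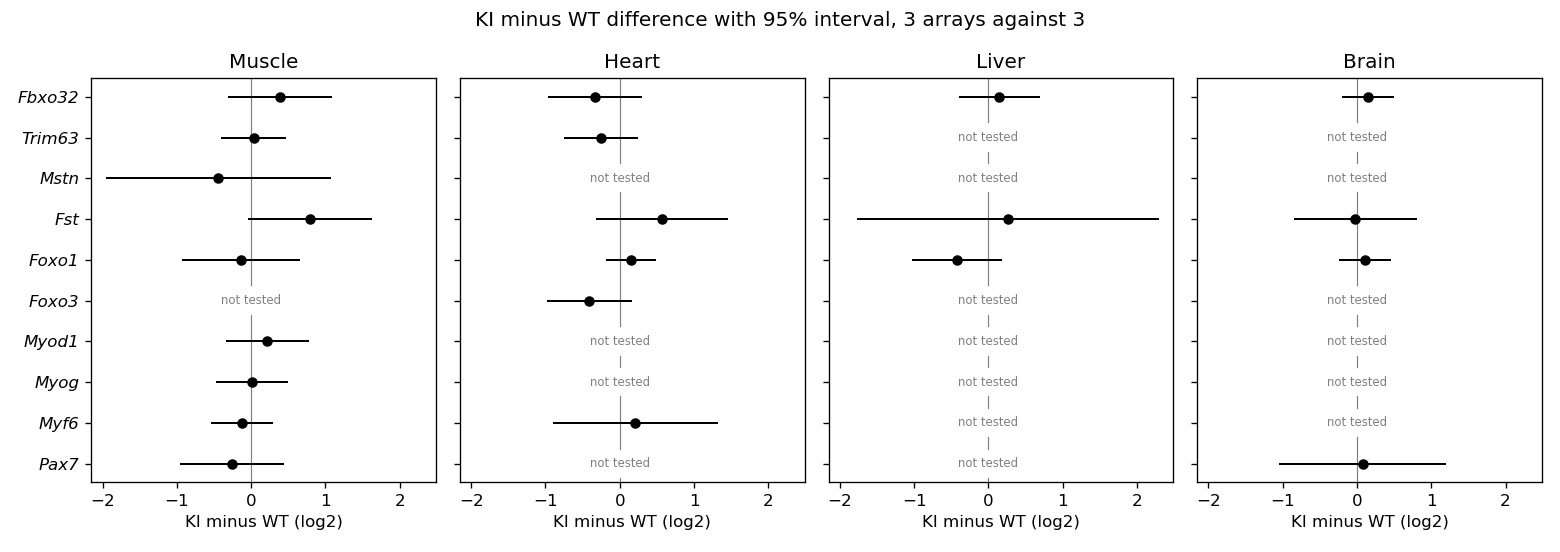
KI minus WT difference in log2 level (horizontal axis) for each member in each tissue, as a point with its 95% interval from 3 arrays against 3; members without a genotype well above background on all 3 arrays were not tested. Every interval spans 0, and Fst in muscle comes nearest to leaving it out (-0.03 to 1.61).

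The 6 muscle samples differed from each other in slow fibre markers more than in any member. The summed level of 6 slow fibre markers (Myh7, Tnni1, Tnnt1, Myl2, Myl3 and Tnnc1) was 3.86, 11.49 and 8.18 in KI mice A, B and C and 9.23, 4.48 and 10.36 in WT mice D, E and F, a 198-fold range. Myh7, the slow myosin, read 1.75, 9.60 and 5.35 in KI and 7.68, 2.38 and 8.33 in WT muscles. Both genotypes held muscles with much and with little slow fibre signal. The summed fast and general muscle markers moved far less, from 12.56 to 13.02. All 6 slow markers were well above background on every muscle array.

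*Mstn* stood in nearly the reverse order of the slow fibre signal. It was highest in the muscles of A (4.05) and E (3.58), which had the least slow signal, lowest in that of B (1.36), which had the most, and between 3.07 and 3.16 in C, D and F. *Pax7* was lowest in the muscles of A (-3.03) and E (-2.80) and read -2.29, -2.28, -1.96 and -2.49 in C, D, F and B. Over the same muscles *Myf6* spanned 0.41 and *Trim63* 0.50 on the log2 scale, and *Mstn* spanned 2.69. Because A and E lie apart from the other 4 muscles in slow signal, no correlation is given, and the part of fibre type in these differences was not tested.

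With the summed slow level of each array as a covariate, an alternative added after this spread was seen, *Mstn* differed by -0.48 and *Fst* by 0.81 between KI and WT (-0.44 and 0.79 without it), and 0 genes were called by limma. Other cell types varied as well. The summed level of mammary markers was 4.22 in the muscle of KI mouse B and -0.95 to 0.63 in the others, that of adipocyte markers ran from 6.06 to 8.21, and that of fibroblast markers from 4.42 to 7.72. The 2 brown adipocyte markers summed to 4.65 in KI mouse B, 4.61 in WT mouse D and -1.65 to 1.2 in the other muscles. Their part in the levels of *Fst* and *Mstn* was not tested.

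**Figure D3:**
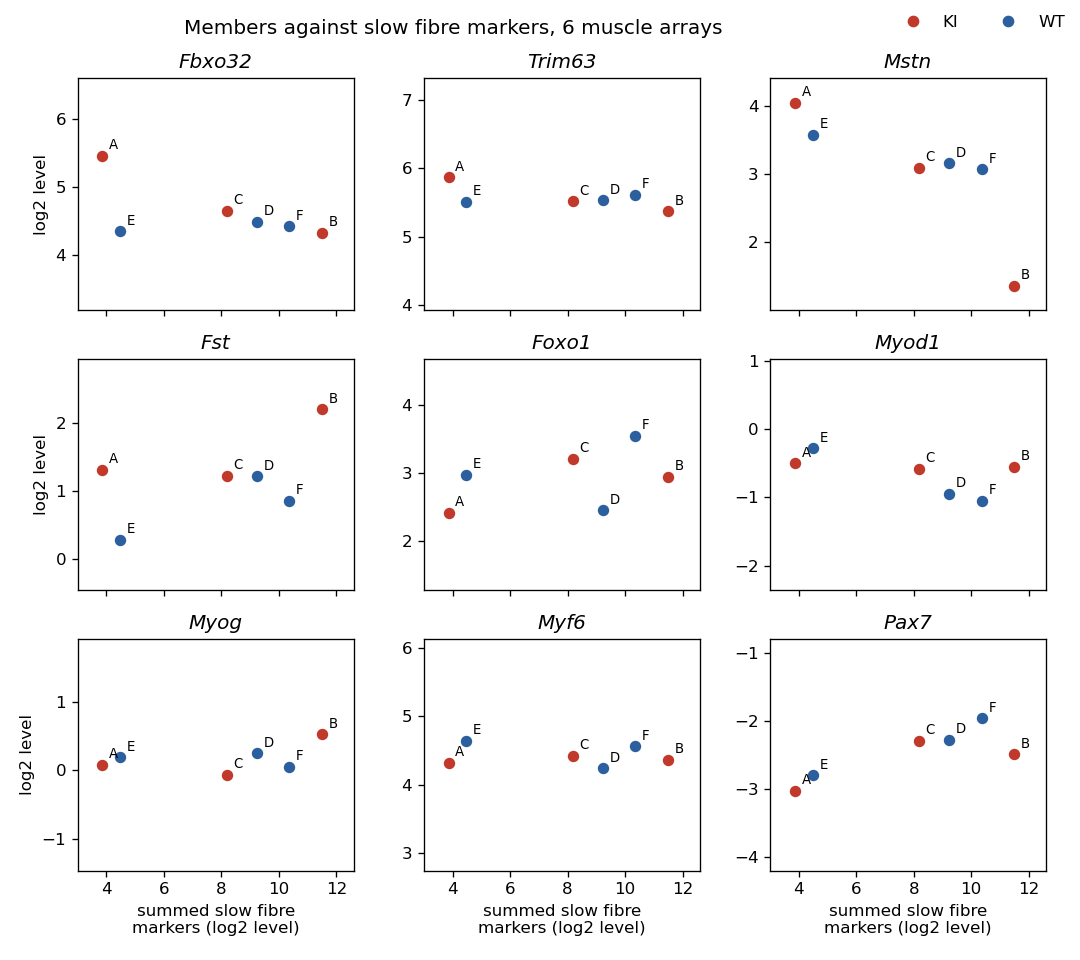
Log2 level of 9 members (vertical axis, the same span of 3.4 in each panel) against the summed log2 level of 6 slow fibre markers (horizontal axis) on the 6 muscle arrays, with KI mice A, B and C in red and WT mice D, E and F in blue. Mstn falls from 4.05 in mouse A to 1.36 in mouse B, and Myf6 stays between 4.24 and 4.64.

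In the other tissues no member passed either. Of all genes, 0% of 14909 were called in heart, 0% of 14074 in liver and 0% of 16045 in brain, with 245, 1667 and 126 at an unadjusted p under 0.05 in limma. Members tested numbered 6 in heart, 3 in liver and 4 in brain, and the groups overlapped for all of them, while they did not overlap for 5.02%, 19.7% and 2.94% of all genes in these tissues. The members' median difference was -0.05 in heart, where that of all genes was also -0.05, 0.15 in liver against 0.05, and 0.09 in brain against -0.03.

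In heart, *Fst* read -2.35, -1 and -1.83 in KI mice A, B and C and -1.83, -2.41 and -2.64 in WT mice D, E and F. The KI mean lay 0.57 above the WT mean (SE 0.37, limma adjusted p = 0.97), and KI mouse B held the highest value, as in muscle. Without the heart of B the difference was 0.21. That heart also had the highest summed adipocyte (5.34), liver (4.19) and mammary (1.82, others 0.13 to 0.66) markers, whose part in the *Fst* level was not tested. The cardiac ligases leaned the other way, with *Fbxo32* at -0.33 (SE 0.26) and *Trim63* at -0.25 (SE 0.20). *Foxo3* differed by -0.41 (SE 0.23), *Foxo1* by 0.15 (SE 0.14) and *Myf6* by 0.21 (SE 0.46), all with a limma adjusted p of 0.97.

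In liver, *Foxo1*, which there drives gluconeogenic genes, read 3.05, 3.61 and 3.79 in KI mice and 3.72, 3.72 and 4.27 in WT mice, in the order A to F. The groups overlapped through KI mouse C, and the difference was -0.42 (SE 0.25, limma adjusted p = 0.496). *Fst* varied more in liver than in any other tissue, from -2.61 in WT mouse F to 0.47 in KI mouse A, and differed by 0.26 (SE 0.84). *Fbxo32* differed by 0.15 in liver (SE 0.22) and by 0.15 in brain (SE 0.14). In brain, *Foxo1* differed by 0.11, *Fst* by -0.02 and *Pax7* by 0.08, all with a limma adjusted p of 1. The brain with the liver markers, from KI mouse C, had the highest brain levels of *Fst* (-0.76) and *Foxo1* (2.48). Without it *Fst* differed by -0.34, *Pax7* by -0.13 and *Foxo1* by 0.02. The part of the liver markers in these levels was not tested.

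The genotype effect was also compared between tissues in 1 fit. A moderated F-test of the 3 interaction contrasts in limma called 0% of 17177 genes, and all 10 members had an adjusted p of 1. The smallest unadjusted p among the members was 0.281, for *Fbxo32*, whose KI minus WT differences were 0.39 in muscle and -0.33 in heart.

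The ligases were set against each other and against the FOXO genes within muscle and within heart, in 10 relations over 6 arrays each, with two-sided exact permutation tests. In heart *Fbxo32* and *Trim63* gave r = 0.87 (exact p = 0.0042, adjusted p = 0.042) and rho = 0.94 (exact p = 0.0167, adjusted p = 0.167). Leaving out the hearts of B and F, farthest from the median of *Fbxo32*, gave r = 0.77. The 2 hearts on the slide shared with muscle, those of C and F, held the 2 highest levels of both genes, and the 4 and 2 hearts on each slide are too few for a value within a slide.

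In muscle the same pair had r = 0.90 (exact p = 0.0417, adjusted p = 0.167) and rho = 0.77 (exact p = 0.1028, adjusted p = 0.454), and r was 0.63 without the muscles of A and C. For *Foxo1*, r with *Fbxo32* was -0.53 in muscle and -0.75 in heart, and r with *Trim63* was -0.36 and -0.77. None of these 4 passed after adjustment (adjusted p from exact permutation 0.167 to 0.734), and in heart they became 0.01 and 0.63 without the hearts of B and F. The 4 relations of *Foxo3* had r between -0.11 and 0.32, and in muscle its probe was not well above background.

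The wider pathways were read from 6 lists. In KI against WT muscle, 0 of their tested genes were called by limma, where 0% of all genes were. An unadjusted p under 0.05 in limma was found for 0 of them and for 0.867% of all genes. Groups did not overlap for 0 of them and for 3.62% of all genes. The median difference was -0.04 for 26 E3 ligases and FOXO-linked atrophy genes, with 9 of 26 above 0. It was -0.03 for 10 FOXO family members and regulators, -0.03 for 18 genes of the myostatin and activin pathway, 0.03 for 16 myogenic transcription factors and cofactors, 0.05 for 10 denervation-responsive genes and 0.04 for 12 satellite cell and fusion genes. The median of all genes was 0.02.

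The smallest p-values in those lists belonged to Eya1, a transcriptional cofactor (0.36, SE 0.20), Calcr, the calcitonin receptor of quiescent satellite cells (-0.66, SE 0.39), and Fbxo31, a ubiquitin ligase subunit (-0.29, SE 0.19), all with a limma adjusted p of 1. Among the myostatin pathway genes, Smad7, which dampens the signal, differed by 0.23 (SE 0.17), Wfikkn1, which binds myostatin, by -0.36 (SE 0.30), and Inhbb, an activin subunit, by 0.61 (SE 0.52). Calcr was well above background on 5 of 6 muscles and Wfikkn1 on 4 of 6, so both differences rest in part on values near background. Myh3, the embryonic myosin that returns in regenerating fibres, ran from -0.74 in WT mouse E to 3.29 in KI mouse B and differed by 0.67 (SE 0.94). Myh3 was thus lowest in a muscle with little slow fibre signal and highest in the one with the most. Myosin genes are alike, and whether their probes share signal was not tested. In heart, where Myh7 read 4.64 to 5.74, Myh3 was well above background on 0 of 6 arrays.

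**Figure D4:**
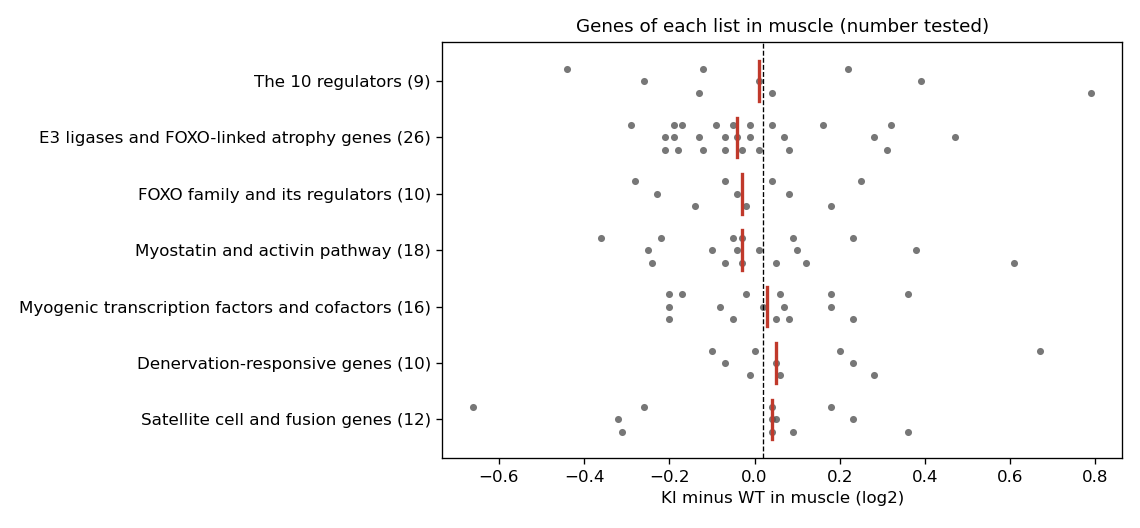
KI minus WT difference in log2 level in muscle (horizontal axis) for the tested genes of each list, 1 point per gene, with the list's median as a red bar and the median of all genes as a dashed line at 0.02. The list medians lie between -0.04 and 0.05, and Fst, at 0.79, is the point farthest from 0.

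Against heart the list medians lay between 0.13 and 1.81, where the median of the 10 regulators was 3.05 and that of all genes 0.10. The highest list median was that of the denervation-responsive genes. Of 11 denervation-responsive genes tested, 5 were over 4-fold higher in muscle than heart, 9 than liver and 7 than brain, where 4.86%, 14.5% and 14.2% of all genes were. Chrna1 and Chrnd, subunits of the acetylcholine receptor at the motor endplate, averaged 2.27 and 0.38 in muscle and were well above background on 1 of 6 and 0 of 6 hearts, with measured heart means of -5.92 and -6.77. Chrnd was at least 55.2-fold higher in muscle than heart (limma adjusted p = 1.11e-13).

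Of the 17 myogenic factors and cofactors tested, 4 were over 4-fold higher in muscle than heart (4.86% of all genes). Mef2c, a partner of the myogenic factors, was 8.21-fold higher in muscle than heart (limma adjusted p = 1.66e-07). Of 26 atrophy-linked genes, 1 was over 4-fold higher in muscle than heart (4.86% of all genes). Among the ligases of that list, Fbxo40 was higher in muscle than heart by 1.39 (limma adjusted p = 0.000273). The muscle-specific ligases Trim54 and Trim55 did not pass against heart. Trim54 differed by 1.18 (limma adjusted p = 0.10) and Trim55 by -0.54 (limma adjusted p = 0.384) between muscle and heart. Trim54 averaged 4.68 (SD 0.27) in muscle and 3.5 (SD 0.39) in heart. As for *Trim63*, the pooled error of its fit takes in the livers, where its SD was 1.89.

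Among FOXO genes, Foxo4 and Foxo6 were higher in muscle than heart by 1.64 and 1.36 (limma adjusted p = 1.14e-07 and 3.5e-06), unlike *Foxo1*. Cdh15 (M-cadherin), a satellite cell adhesion protein, was 138-fold higher in muscle than heart (limma adjusted p = 4.65e-13). Tcap, a titin cap protein with a role in myostatin secretion, was high in both, at 9.78 in muscle and 8.69 in heart.

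The genes whose profile over the 24 arrays was most like that of each member were sought among the same 17177 genes, as a description over tissues that differ in most genes. *Trim63* was closest to Myom2, Rpl3l and Ttn (r = 0.998, 0.997 and 0.996), genes of striated muscle. *Myog* was closest to Hoxc9, Hoxa10 and Ampd1 (r = 0.998, 0.998 and 0.997), of which the first are homeobox genes of body position. *Mstn* was closest to Casq1, Sypl2 and Ptx3 (r = 0.982, 0.98 and 0.98), and Casq1 is the calsequestrin of fast fibres.

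*Myod1* was closest to Mybph (r = 0.991), Cacng1 and Dupd1, and *Myf6* to Dcaf6 (r = 0.985), Tpm2 and Ppp1r27. *Fbxo32* was closest to Stxbp4 and E2f6 (both r = 0.994). The likeness was weaker for *Foxo1* (Npr2, r = 0.934), *Pax7* (Cacnb1 and Pou4f1, both r = 0.902), *Fst* (Atf4, r = 0.891) and *Foxo3* (Cox17, r = 0.822). All of these coefficients share the same 24 libraries and rest mainly on the differences between tissues.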

How the data were processed

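RNA of 4 tissues from 6 mice was labelled with Cy3 and hybridised to 24 one-colour Agilent arrays. The deposited scanner tables hold intensity, which the authors obtained with Agilent Feature Extraction 12.0.3.1 (background-subtracted processed signal). The deposited score table holds z-scores of the log signal within each array, used as an alternative.

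Spots of a probe were averaged after control and outlier spots were left out, and log2 of the processed signal minus the array's 75th percentile was taken. A symbol was found for 28331 of 55681 probes (50.9%), and each of 21368 genes was represented by 1 probe, that of the highest mean over all arrays. Levels were fitted with limma 3.58.1 (R 4.3.3, lmFit and eBayes) and adjusted by Benjamini-Hochberg over all genes tested, with a threshold of 0.05. KI and WT were compared on the 6 arrays of a tissue, over genes well above background on all 3 arrays of a genotype. Tissues and the interaction were compared on all 24 arrays. Alternatives covered quantile normalization, normexp (offset 50), deposited scores, no filter, slide, the mouse as a replicate block, array weights, other probes and each mouse left out. Mice link the tissues because the labels number the animals. The consensus correlation within a mouse was -7e-04.

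The members and lists were chosen with earlier results of these data known. Named were all members, in each list the 3 genes of smallest p in muscle and the 3 of largest muscle minus other tissue level, and the 3 genes most like each member. Scripts were tested on simulated data. The number of arrays limits the precision. Which mice shared a litter is not given in the sources used here. 1 gene that this rule names is not reported here.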

Additional observations from a re-analysis of the deposited data

How the results depend on the processing

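No member passed between KI and WT under any alternative run. In liver, 0 genes were called on its own arrays and 2 on all 24 arrays, also 2 with the mouse as replicate block (Pla2g4f, 3.28, and Tmem255a, 1.52, named after their values were seen), and the block changed no call of a member and moved the tissue counts little (lower in muscle than heart 5040, from 5042). Genes called between muscle and heart numbered 11124, and 6592 on the slide that holds both. Between muscle and liver they numbered 13606, and 9019 with slide as a fixed effect. The interaction test called 0 genes, 1 with quantile normalization (Bves) and 0 to 1 with a mouse left out.

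Small KI minus WT differences changed sign. In muscle, *Trim63* was -0.00034 with normexp, -0.02 with array weights and -0.10 with another probe, and *Myog* was -0.01 with deposited scores and -0.14 with array weights. *Fbxo32* in liver was -0.03 with array weights, and *Pax7* in brain was -0.01 with deposited scores and -0.28 with array weights. Between muscle and heart, *Foxo3* was 0.39 with normexp, and *Foxo1* was 0.05 with slide fixed and on the shared slide, 0.10 in WT arrays and 0.12 with another probe.

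With a mouse left out, muscle differences ran from -0.10 to 0.14 (*Trim63*), -1.05 to 0.30 (*Mstn*), -0.40 to 0.14 (*Foxo1*) and -0.16 to 0.14 (*Myog*). They ran from -0.23 to 0.50 for *Myf6* in heart, -0.06 to 0.34 for *Fbxo32* and -0.48 to 0.95 for *Fst* in liver, -0.34 to 0.19 for *Fst* and -0.21 to 0.58 for *Pax7* in brain, and -0.21 to 0.13 for *Foxo1* between muscle and heart. The causes were not tested. Members not well above background have no measured level, which limits *Foxo3* in muscle.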

Other observations

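In liver, 5 of the 9 satellite cell and fusion genes tested had KI and WT groups that did not overlap, where 19.7% of all genes tested in liver did not. They were Cd34, Heyl, Notch3, Sdc4 and Vcam1. The list is described here after its values were seen, and its share was the largest of the lists. Of the 9, 4 had an unadjusted p under 0.05 in limma, as had 11.8% of all genes, and 0 passed the adjusted threshold. Elsewhere in liver the groups did not overlap for 4 of 23 atrophy-linked genes, 2 of 9 FOXO family members and regulators and 3 of 15 myostatin and activin genes. It was 4 of 12 for myogenic factors and cofactors and 0 of 2 for denervation-responsive genes. The KI and WT livers did not overlap in the summed macrophage, fibroblast and blood markers, but they did in the endothelium, Schwann cell and adipocyte sums. The endothelium sums ran from 3.35 to 3.79 in the KI livers and from 3.16 to 3.47 in the WT livers. The summed macrophage markers were 5.56, 5.37 and 5.59 in KI livers A, B and C and 5.01, 4.90 and 4.83 in WT livers D, E and F. The summed fibroblast markers ran from 2.98 to 3.17 in the KI livers, and from 2.31 to 2.68 in the WT livers. Their part in the satellite cell list was not tested.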
